A study of Mus musculus with 8 samples.

Results

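Transcription factor, ligand, receptor and lineage marker mRNAs are described here by their abundance in the posterior trunk of the mouse embryo at day 9.5 of gestation (E9.5). Of the 8 libraries of the series, the 5 made from wild-type (WT, 2 libraries) and Prtg+/- embryos (Het, 3 libraries) were taken by genotype; the 3 libraries from Prtg-/- embryos were not used. The embryos were C57BL/6, came from matings of Prtg heterozygous mice, and were cut between somites 12 and 13, so each library holds the trunk and tail bud behind that level. The labels do not say which part of Prtg the knockout allele lacks. No contrast between the genotypes was made and no test was run: levels and their spread are described. Nothing in the labels says that the libraries came from separate litters, or whether embryos were pooled, so the spread between them may be partly technical.

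At this stage the vertebrate body is still being extended from the tail bud, where progenitors that co-express T and Sox2 feed the spinal cord and the presomitic mesoderm. WNT and FGF signals keep these cells undifferentiated, retinoic acid from the somites opposes them, and a Notch-driven clock in the presomitic mesoderm times the budding of somites. Hox genes give each level of the axis its identity, with paralogues of higher number switched on later and further back.

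Levels are read counts scaled by exonic length and by the library total (FPKM), computed per library, so that genes can be compared per length. An order between genes is an order in this measure and need not be one of mRNA abundance. Gapdh, for example, had a mean of 11.7 FPKM beside 938 FPKM for Actb. Where 5 values are listed they stand in the order WT 1-2, WT 2-1, Het 1-1, Het 2-4, Het 2-5, named by the genotype and the pair of numbers in the deposited column names. A mean is over the 5 libraries and its error is the SD (n = 5). In bulk tissue, fewer cells of a type and less RNA per cell cannot be told apart.

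Promoter stretches are printed for genes at both ends of the range, to show how their base composition differs. They are the 120 bases before the transcript start, credited to RefSeq (build GRCm38.p6), for the highest transcription factor, ligand and receptor with an entry in the table, for the lowest pair of the forebrain and midbrain list with an entry, and for Hbb-y, the highest marker of primitive red cells. Capitals mark CG dinucleotides. Tcf3 lies at chr10:80433636-80433755 (minus strand), Igf2 at chr7:142666817-142666936 (minus strand) and Igdcc3 at chr9:65141034-65141153 (plus strand). Barhl2 lies at chr5:106458167-106458286 (minus strand), Otx2 at chr14:48667645-48667764 (minus strand) and Hbb-y at chr7:103853208-103853327 (minus strand).
Tcf3: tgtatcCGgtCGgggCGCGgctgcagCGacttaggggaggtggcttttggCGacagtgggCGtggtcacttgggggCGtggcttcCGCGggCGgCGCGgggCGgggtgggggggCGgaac
Igf2: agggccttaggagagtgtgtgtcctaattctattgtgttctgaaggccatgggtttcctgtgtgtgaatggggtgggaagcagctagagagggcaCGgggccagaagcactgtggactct
Igdcc3: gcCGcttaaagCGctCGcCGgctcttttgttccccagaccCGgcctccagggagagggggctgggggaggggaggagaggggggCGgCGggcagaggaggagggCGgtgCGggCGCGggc
Barhl2: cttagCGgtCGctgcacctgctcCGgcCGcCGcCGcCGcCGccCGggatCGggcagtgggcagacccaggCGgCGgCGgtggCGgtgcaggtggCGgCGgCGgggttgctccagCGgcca
Otx2: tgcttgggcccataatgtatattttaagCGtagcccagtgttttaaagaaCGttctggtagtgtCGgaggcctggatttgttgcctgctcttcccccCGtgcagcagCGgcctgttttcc
Hbb-y: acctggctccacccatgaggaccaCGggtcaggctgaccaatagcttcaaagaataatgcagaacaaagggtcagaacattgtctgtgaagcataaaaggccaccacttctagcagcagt

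These 6 stretches run from 18 CG dinucleotides in Barhl2 and 15 in Tcf3, through 11 in Igdcc3 and 5 in Otx2, to 1 each in Igf2 and Hbb-y. Only the first entry of each gene was used, and whether transcripts start there in this tissue was not examined. Over the 300 bases of each promoter entry, the ratio of observed to chance CG content was 1.03 for both Tcf3 and Barhl2, a gene with 0 counts, and 0.0714 for Hbb-y, with a mean of 1921 FPKM. Promoters were matched for 406 of 572 transcription factors, 222 of 295 ligands and 226 of 288 receptors. The median ratio was 0.519 for transcription factors under 0.1 FPKM and 0.793 for those of at least 10 FPKM. The same medians were 0.248 and 0.712 for ligands, 0.303 and 0.766 for receptors, and 0.188 and 0.829 for all protein-coding genes. Transcription factors at the low end thus kept a higher ratio than ligands, receptors or coding genes at the low end. The letters TATAAA, searched on both strands, stood in 14.2% of all 27025 promoters of the table, in 32.9% of ligand promoters under 0.1 FPKM and in 13.6% of those of at least 10 FPKM. The latter is 3 of 22 promoters. For transcription factors these shares were 14.3% and 8.51%, for all coding genes 24.5% and 6.12%, and for receptors, in the opposite order, 5.13% and 9.09%.

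The 5 libraries held 16874860 to 17388419 counts each, and 12319 to 12421 genes at 1 FPKM or more. The 100 most abundant genes took 16.5% to 16.7% of the counts, mitochondrial genes 1.17% to 1.30% and globin genes 0.279% to 0.576%. Xist, the RNA of the inactive X chromosome, stood at 47.4, 0.08455, 45.3, 44.9 and 0.199 FPKM, so both libraries with 1 as their first number (column set 1, WT 1-2 and Het 1-1) were high in it, as was Het 2-4 of the 3 in column set 2. The labels do not say what this first number stands for. Prtg itself stood at 34.7, 42.0, 27.2, 26.4 and 30.75 FPKM, highest in WT 2-1 and lowest in Het 2-4.

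Transcription factors were the most broadly detected of the 3 classes. Of 572, 347 (60.7%) had a mean of at least 1 FPKM, beside 49.7% of 21903 protein-coding genes and 22.2% of all 55573 genes of the table. At 10 FPKM or more stood 135 (23.6%), beside 22.8% of coding genes and 9.61% of all genes, and at 100 FPKM or more 4 (0.699%), beside 1.64% and 0.761%. Fewer than 3 counts over the 5 libraries were found for 39 (6.82%), beside 25.2% of coding genes and 58.1% of all genes. The class was thus more often detected than coding genes at large, and its share at 10 FPKM or more was close to theirs.

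The 4 above 100 FPKM were Tcf3, Id1, Tead2 and Hoxb9. Tcf3 (chr10:80409514-80433647), an E protein that pairs with other bHLH factors, stood at 125, 126, 125, 126 and 120 FPKM. Id1, which lacks a DNA-binding region and captures E proteins, stood at 93.4, 120, 111, 119 and 115 FPKM, lowest in WT 1-2. Its relatives Id3 and Id2 had means of 85.3 ± 7.91 and 43.8 ± 3.11 FPKM, so activator and inhibitor of the same pairing system were both near the top. Tead2, a DNA-binding partner of the YAP and TAZ co-activators, stood at 106, 112, 108, 108 and 108 FPKM, almost level across libraries.

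Among the rest of the highest 15, 4 are general regulators of growth, stress or the cell cycle. Atf4, the factor of the amino acid and stress response, had a mean of 98.6 ± 6.14 FPKM. Tfdp1, the partner of E2F factors, had 88.0 ± 3.20 FPKM and E2f4 84.1 ± 3.64 FPKM. All 10 members of the E2f and Dp family passed 1 FPKM and 6 passed 10 FPKM. Mycn had 80.3 ± 3.10 FPKM beside 32.6 ± 2.99 FPKM for Myc, and it was above Myc in each library.

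**Figure D1:**
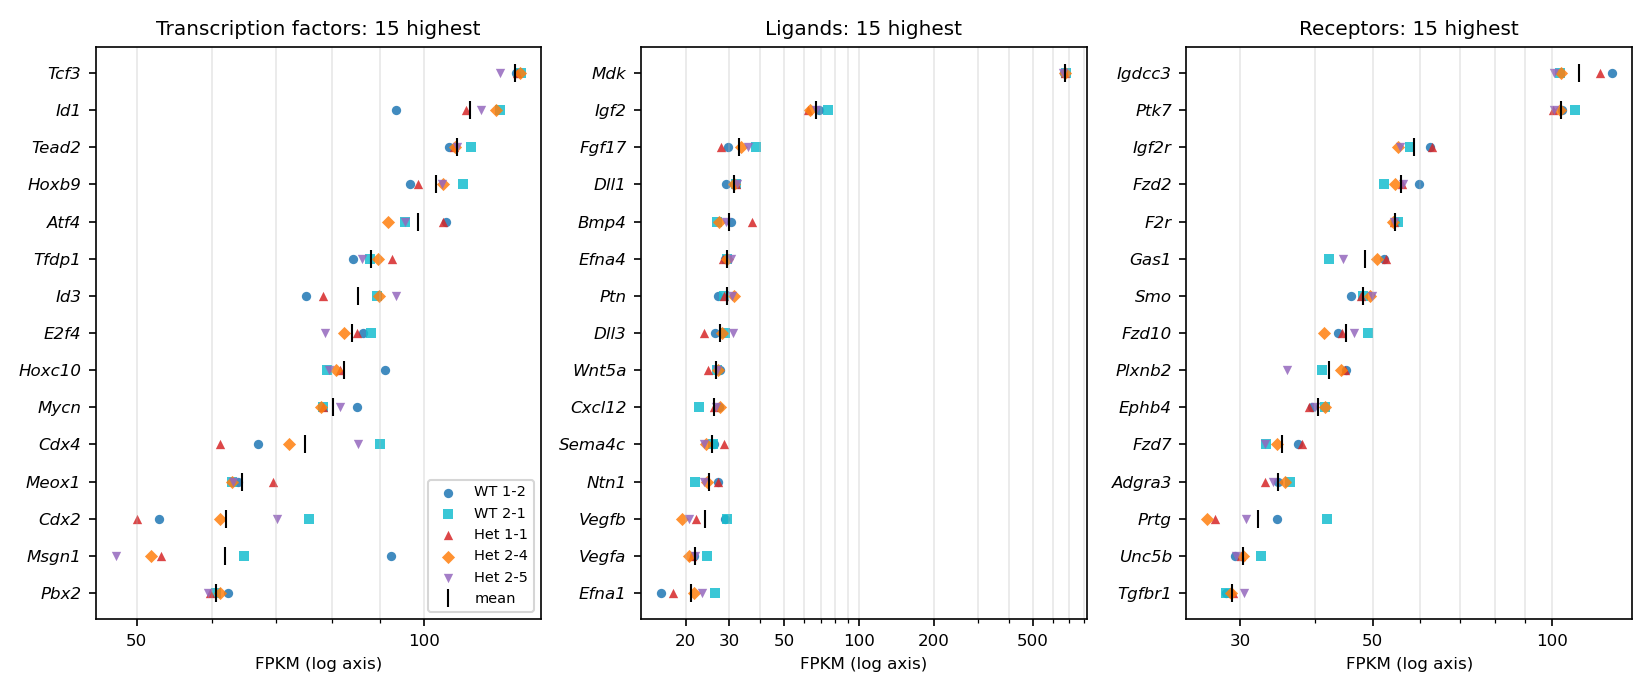
FPKM in each of the 5 libraries (coloured symbols, log axis) and their mean (black bar) for the 15 highest transcription factors, ligands and receptors. Mdk, at 663.5 to 682 FPKM, lies far from the other ligands, and Msgn1 (47.6 to 92.4 FPKM) is spread more widely than most of the other factors shown.

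Hox genes were abundant as a family, with 35 of 39 at 1 FPKM or more, 23 at 10 FPKM or more and a median of 15.9 FPKM. Hoxb9 stood at 96.8, 110, 98.6, 105 and 104.5 FPKM, and Hoxc10 at 90.9, 79.2, 81.7, 80.9 and 79.6 FPKM. The next was Hoxc6, with a mean of 35.6 ± 4.03 FPKM, below Hoxc10 in each library. Named with their values already seen, the others fall by paralogue number as follows. Groups 1 to 4 had a median of 15.6 FPKM over 12 genes, and groups 5 to 9 a median of 25.2 FPKM over 15 genes, of which 13 passed 10 FPKM. The 3 genes of group 10 lay between 15.8 and 82.5 FPKM. None of the 9 genes of groups 11 to 13 reached 10 FPKM, and their median was 3.13 FPKM.

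Among those 9, the step down did not follow the number alone. The 3 genes of group 11 lay between 5.55 and 9.75 FPKM, and both genes of group 12 below 1 FPKM (Hoxd12 0.786 ± 0.306 and Hoxc12 0.182 ± 0.204 FPKM). In group 13, Hoxd13 had 9.03 ± 2.55 FPKM and Hoxa13 3.13 ± 0.579 FPKM. Hoxc13, at 0.204 ± 0.0873 FPKM, and Hoxb13, with 3 counts in all, were near the floor. Within group 13, Hoxd13 was thus above Hoxa13 and both far above Hoxc13. On 1 side of Hoxb13 its neighbours Calcoco2 (0.0071 FPKM) and Ttll6 (0.0425 FPKM) were also under 0.1 FPKM, so no order is read from Hoxb13.

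**Figure D2:**
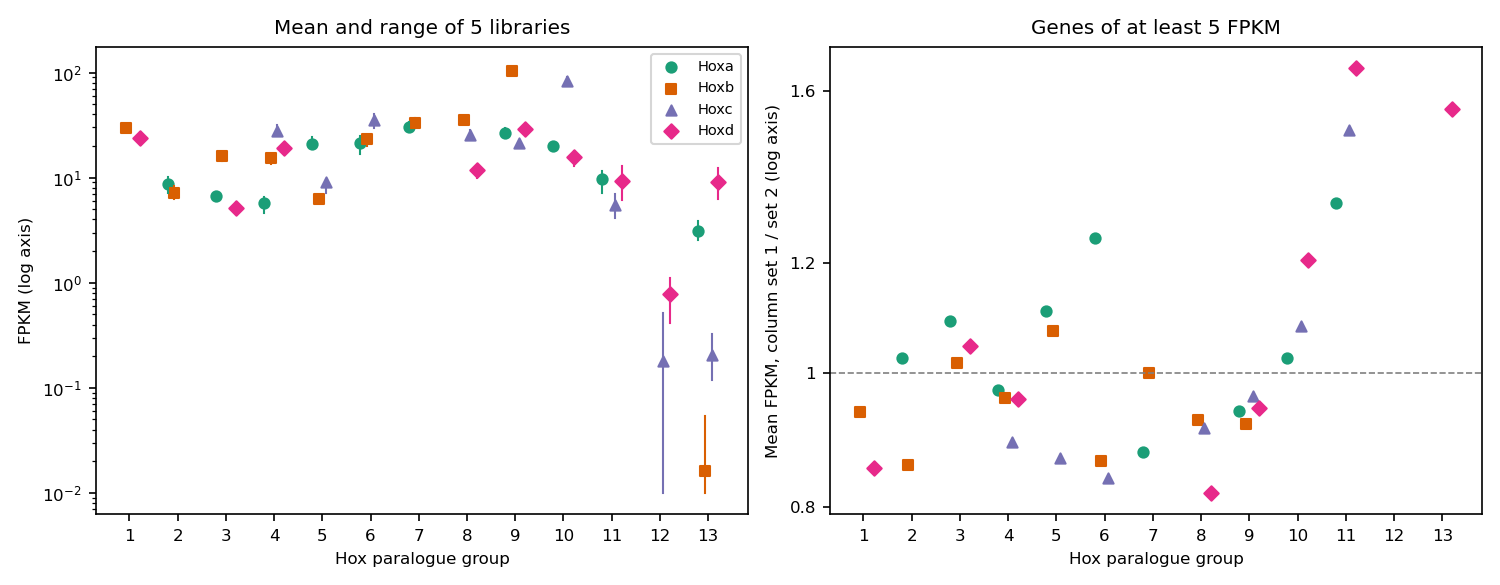
Left: mean FPKM of the Hox genes shown (symbols by cluster) by paralogue group, with lines from the lowest to the highest library on a log axis; a lower end of 0 is cut at the bottom of the axis. Right: mean FPKM of column set 1 (2 libraries) over column set 2 (3 libraries) for those of at least 5 FPKM, on a log axis; groups 11 to 13 lie between 1.33 and 1.66.

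Cdx factors, which activate posterior Hox genes, were close behind. Cdx4 stood at 66.9, 89.9, 61.1, 72.1 and 85.2 FPKM and Cdx2 at 52.8, 75.8, 49.98, 61.1 and 70.1 FPKM. Cdx1 was much lower, at 7.68, 12.0, 8.03, 9.08 and 8.51 FPKM. In all 3 genes both libraries of column set 1 were below the 3 of set 2, and the order Cdx4, Cdx2, Cdx1 held in each library. Cdx4 and Cdx2, though not Cdx1, were also higher in WT 2-1 and Het 2-5, the libraries low in Xist, than in the rest.

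T, the T-box factor of the tail bud and notochord, stood at 49.3, 65.9, 49.0, 57.5 and 60.5 FPKM. Sox2, the neural partner in the same progenitors, stood at 26.2, 20.7, 25.3, 22.4 and 25.5 FPKM, with no separation of the sets. Nkx1-2, a marker of the same progenitors, had 22.4 ± 2.79 FPKM. Further along the mesodermal path, Tbx6 had 29.1 ± 2.92 FPKM, and Msgn1, the bHLH factor of the presomitic mesoderm, stood at 92.4, 64.7, 53.1, 51.8 and 47.6 FPKM. Msgn1 was thus highest in WT 1-2, with WT 2-1 next. In the somites, Meox1 had 64.5 ± 2.85 FPKM, Tcf15 44.6 ± 2.71 FPKM, Foxc2 25.0 ± 0.665 FPKM and Uncx, which marks the posterior side of each somite, 7.45 ± 0.435 FPKM. Tbx18, of the anterior side, had 1.21 ± 0.215 FPKM.

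Other families were detected in part, and their shares differed widely. The Runx list had 1 of 4 at 1 FPKM or more: Cbfb, the non-DNA-binding partner of Runx factors, at 33.7 ± 0.995 FPKM. None of the Runx genes themselves reached 1 FPKM, with Runx1 highest at 0.277 ± 0.0345 FPKM. T-box genes ran from T down to Eomes at 0.0169 ± 0.0184 FPKM, with 7 of 17 at 1 FPKM or more. Fox genes had 24 of 44 at 1 FPKM or more, led by Foxo4 (41.5 ± 2.77 FPKM) and Foxp4 (35.7 ± 2.85 FPKM). Sox genes had 14 of 20, led by Sox12 (41.3 ± 2.01 FPKM) and Sox13 (39.4 ± 1.10 FPKM), both above Sox2. Pax genes had 5 of 9, none above 10 FPKM, from Pax3 (5.37 ± 0.373 FPKM), of dorsal neural tube and dermomyotome, to Pax5 (0.0410 ± 0.0165 FPKM).

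Several families of neuronal and other homeobox or bHLH factors were also detected in part. Of 22 proneural and neuronal bHLH genes, 4 passed 1 FPKM and 11 were under 0.1 FPKM. POU factors had 4 of 15 at 1 FPKM or more, and LIM homeobox factors 5 of 12, led by Isl1 at 7.52 ± 1.39 FPKM. All 8 Smad and all 8 Tcf/Lef and Tead genes, the nuclear ends of the BMP, WNT and Hippo pathways, passed 1 FPKM. Other pathway families were detected in part, with 10 of 21 Stat, Irf and NF-kappaB genes and 20 of 47 nuclear receptors at 1 FPKM or more.

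**Figure D3:**
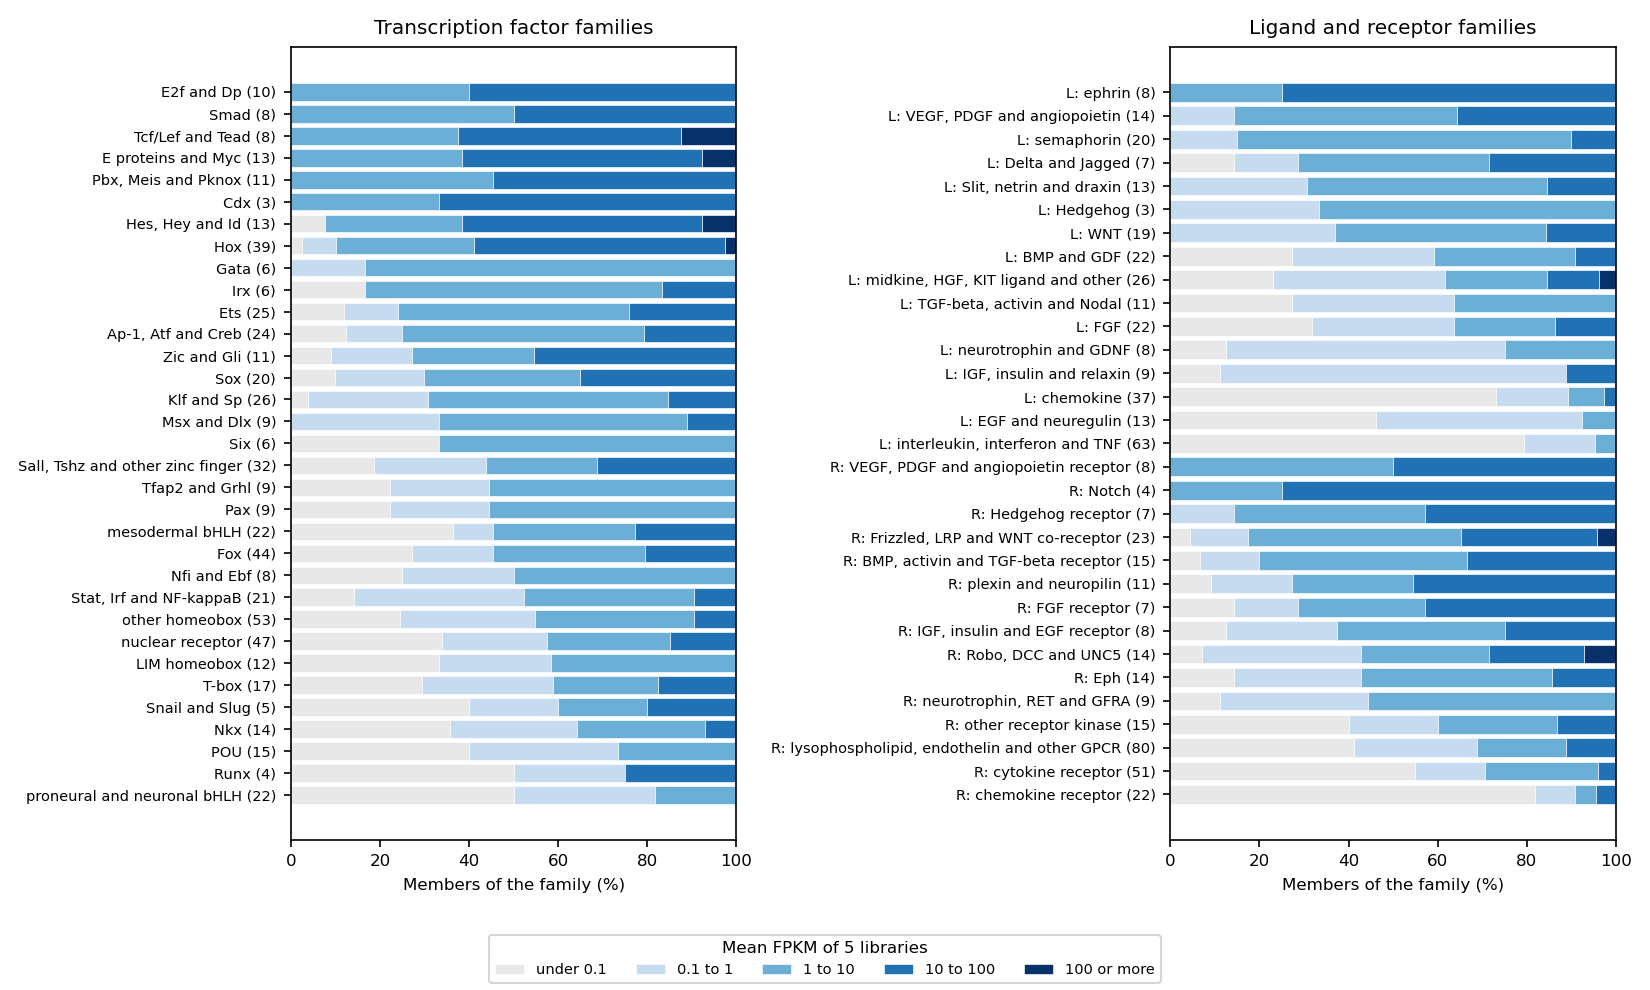
Share of each family's members (horizontal axis, percent; number of members in brackets) in 5 classes of mean FPKM, from under 0.1 (grey) to 100 or more (darkest blue); L marks ligand and R receptor families. All members of the E2f and Dp, Smad, Tcf/Lef and Tead, ephrin and Notch families pass 1 FPKM, while cytokine and chemokine families lie mostly under 0.1 FPKM.

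Ligands were detected more rarely than transcription factors. Of 295, 107 (36.3%) passed 1 FPKM, beside the 49.7% of coding genes, and 31 (10.5%) passed 10 FPKM, beside 22.8%. A single ligand was above 100 FPKM: Mdk (chr2:91929805-91932297), midkine, a heparin-binding growth factor of the embryo, stood at 665, 682, 675, 673 and 663.5 FPKM. Its only relative, Ptn (pleiotrophin), had 29.3 ± 1.70 FPKM, so the pair differed widely per length. Igf2, the imprinted fetal growth factor, stood at 69.1, 74.8, 62.0, 63.4 and 67.1 FPKM, and none of the other 8 genes of the insulin family reached 1 FPKM.

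FGF ligands had 8 of 22 at 1 FPKM or more. Fgf17 stood at 29.6, 38.6, 27.6, 33.3 and 35.6 FPKM, and Fgf8, the other tail bud FGF, at 15.2, 21.2, 16.7, 18.4 and 18.4 FPKM. Both were lowest in the libraries of set 1 and highest in WT 2-1. Among WNT genes 12 of 19 passed 1 FPKM. Wnt5a, which signals without beta-catenin in axis elongation, had 26.6 ± 1.06 FPKM, Wnt5b 20.9 ± 2.02 FPKM, and the lowest was Wnt9b with 0.384 ± 0.131 FPKM. Wnt3a, the WNT of the tail bud progenitors, stood at 6.69, 9.85, 5.32, 8.04 and 9.83 FPKM, again with set 1 below set 2.

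BMP and GDF genes had 9 of 22 at 1 FPKM or more, led by Bmp4 (30.4, 26.7, 36.9, 27.2 and 29.1 FPKM) and Gdf11 (20.8 ± 1.19 FPKM), which acts in the switch from trunk to tail. Nodal, needed earlier at gastrulation, had 0.234 ± 0.0816 FPKM, and no gene of the TGF-beta, activin and Nodal family reached 5 FPKM. Of the Notch ligands, Dll1 had 31.3 ± 1.25 FPKM and Dll3, which acts inside the cell against Notch, 27.5 ± 2.76 FPKM. Both are used in the presomitic mesoderm, and Jag1 was lower, at 9.745 ± 0.604 FPKM. Shh, from notochord, floor plate and gut, stood at 8.17, 8.61, 8.47, 7.92 and 8.02 FPKM, beside 1.595 ± 0.383 FPKM for Ihh and 0.131 ± 0.0368 FPKM for Dhh.

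Guidance and vessel ligands were broadly present. All 8 ephrins passed 1 FPKM and 6 passed 10 FPKM, from Efna4 (29.3 ± 0.814 FPKM) to Efna5 (5.83 ± 0.783 FPKM). Semaphorins had 17 of 20 at 1 FPKM or more, led by Sema4c (25.7 ± 1.93 FPKM). Ntn1, netrin 1, had 24.8 ± 2.19 FPKM. Of 63 interleukins, interferons and TNF ligands, 3 passed 1 FPKM, with Tnfsf9 highest at 3.57 ± 0.578 FPKM, and of 37 chemokines 4, with Cxcl12 alone above 10 FPKM, at 26.0 ± 1.92 FPKM. Of the 100 genes of these families, 77 were thus under 0.1 FPKM, beside 7719 of 21903 coding genes and 36529 of all 55573 genes. Cxcl12, a chemokine that guides migrating embryonic cells, stood apart from the rest of these families.

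Receptors lay between the other classes, with 136 of 288 (47.2%) at 1 FPKM or more, beside 49.7% of coding genes, and 53 (18.4%) at 10 FPKM or more, beside 22.8%. The highest were Igdcc3 (chr9:65141189-65185872), a member of the DCC subclass of the immunoglobulin superfamily, and Ptk7, a pseudokinase of WNT planar polarity signalling. Igdcc3 stood at 126, 103, 120, 104 and 101 FPKM, with both libraries of set 1 above the others. Ptk7 stood at 104, 109, 100.1, 103 and 100.5 FPKM, with no such split.

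The family of Igdcc3 had a wide range. Prtg, the gene altered in the Het embryos, had a mean of 32.2 ± 6.38 FPKM over both genotypes, which is not a wild-type level. Unc5b, a netrin receptor, had 30.4 ± 1.23 FPKM and Neo1 (neogenin) 20.5 ± 1.57 FPKM. Dcc, the netrin receptor of commissural neurons, was the lowest of the 14, at 0.0790 ± 0.0210 FPKM. The netrin ligand Ntn1 was thus abundant beside Neo1 and Unc5b, with Dcc under 0.1 FPKM.

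Of the WNT receptors, 19 of 23 passed 1 FPKM. Fzd2 had 55.8 ± 2.81 FPKM, Fzd10 45.1 ± 2.93 FPKM and Fzd7 35.3 ± 2.38 FPKM. Fzd6 was listed at 0.0217 ± 0.0177 FPKM, but its neighbours Baalc (0 FPKM) and Slc25a32 (0.052 FPKM) were also under 0.1 FPKM, so no order is read from it. Of the Hedgehog receptors, Gas1, a co-receptor, had 48.6 ± 4.79 FPKM, the transducer Smo 48.2 ± 1.499 FPKM, and Hhip, an antagonist, 0.812 ± 0.0727 FPKM. All 4 Notch receptors passed 1 FPKM, with Notch3 at 22.9 ± 1.17 FPKM and Notch4, of vessels, lowest at 4.79 ± 0.250 FPKM. Of the FGF receptors, Fgfr1 stood at 25.5, 25.2, 26.1, 24.8 and 24.5 FPKM and Fgfrl1, which lacks the kinase, had 24.9 ± 1.36 FPKM.

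Igf2r, which binds and removes IGF2, had 58.7 ± 3.67 FPKM, and F2r, the thrombin receptor, 54.5 ± 0.398 FPKM. Adgra3, an adhesion receptor, had 34.8 ± 1.33 FPKM, Plxnb2, a semaphorin receptor, 42.3 ± 3.94 FPKM, and Ephb4, the venous ephrin receptor, 40.5 ± 1.17 FPKM. Tgfbr1 closed the highest 15 at 29.1 ± 0.824 FPKM. Of 22 chemokine receptors, 2 passed 1 FPKM: Cxcr4 (20.7, 17.01, 14.4, 16.3 and 16.3 FPKM) and Ackr3 (7.87 ± 0.798 FPKM), the receptors of Cxcl12. Of 51 cytokine receptors 15 passed 1 FPKM, led by Ifnar1 (14.5 ± 0.259 FPKM).

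Markers of the tissues that the dissection should hold were present. All 16 genes of the neuromesodermal progenitor and tailbud list passed 1 FPKM, with a median of 23.2 FPKM, from Lin28a, an RNA-binding protein of early embryonic cells (187 ± 18.4 FPKM), to Wnt8a (1.41 ± 0.273 FPKM). All 14 genes of the presomitic mesoderm and clock list passed too, with a median of 20.2 FPKM. In the same axis set, Cyp26a1, which degrades retinoic acid in the tail bud, stood at 25.8, 40.3, 27.2, 39.1 and 41.85 FPKM, and Aldh1a2, which makes it in the somites, at 34.7, 31.3, 35.1, 31.7 and 31.2 FPKM. The 2 enzymes were at similar levels but split the sets in opposite directions. Nr6a1, a nuclear receptor of the trunk, had 13.4 ± 1.42 FPKM.

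Of 14 somite and dermomyotome genes 12 passed 1 FPKM, and of 9 sclerotome genes 7. Twist1 led the sclerotome list at 60.0 ± 5.55 FPKM, while Pax1, of the ventral somite, stood at 3.08, 1.47, 2.89, 2.69 and 1.70 FPKM. The myogenic factors were low or at 0 counts. Myf5, the first of them, had 0.669 ± 0.113 FPKM. Myod1 and Myog were listed at 0 counts in all 5 libraries, where 3 counts would give 0.0189 and 0.0235 FPKM. Actc1 (9.37 ± 2.72 FPKM) and Des (8.86 ± 0.734 FPKM) were the highest of the 10 myotome genes, and both are also used in heart and smooth muscle.

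In the neural lists, progenitor genes stood above neuronal ones. The 17 neural tube progenitor genes had a median of 3.64 FPKM, led by Irx3 (29.3 ± 1.12 FPKM) and Msx1 (29.2 ± 2.98 FPKM), and the 17 of differentiating neurons a median of 0.451 FPKM. Isl1, the highest of the latter, is also a hindlimb gene, and Tubb3, a neuronal tubulin, came next with 4.78 ± 0.801 FPKM. The neural crest list had a median of 1.55 FPKM over 14 genes, led by Ets1 (8.56 ± 0.461 FPKM) and Snai2 (8.34 ± 0.686 FPKM), which other tissues share. Of the 14, 9 passed 1 FPKM, among them Tfap2a at 2.77 and Tfap2b at 1.18 FPKM. Sox10 had 0.923 ± 0.383 FPKM and Foxd3 0.0353 ± 0.0289 FPKM. The 4 coding genes nearest Foxd3 were at 3.23, 0.0861, 0.157 and 0.833 FPKM, so its low value is read with caution.

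Ventral and lateral tissues were represented as well. Of 14 lateral plate and hindlimb genes 13 passed 1 FPKM. Pitx1, the hindlimb selector, stood at 48.4, 52.1, 53.2, 48.8 and 48.7 FPKM, and Tbx4, the T-box factor it acts on there, at 11.5, 8.58, 13.4, 9.40 and 8.27 FPKM. Tbx5, the forelimb paralogue, stood at 0.450, 0.861, 0.368, 0.617 and 0.431 FPKM, below Tbx4 in each library. Krt8 (112 ± 8.80 FPKM) and Krt18 (90.5 ± 5.59 FPKM), keratins of simple epithelia, led the surface ectoderm list. All 15 endothelial genes passed 1 FPKM, with Plvap highest (46.4 ± 3.20 FPKM) and Sox17 lowest (2.76 ± 0.428 FPKM). The hindgut and definitive endoderm list had 10 of 14, led by Cdx2, Cldn6 (40.7 ± 3.44 FPKM) and Epcam (24.8 ± 2.16 FPKM), all shared with other tissues.

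Red cells of the yolk sac gave the highest values of any list. Hbb-y, the embryonic beta-like globin, stood at 2688, 1261, 2214, 2106 and 1335 FPKM, Hbb-bh1 at 2438, 1354, 2036, 1951 and 1362 FPKM, and Hba-x at 2330, 1095, 1684, 1568 and 1006 FPKM. Each was highest in WT 1-2, and WT 2-1 and Het 2-5 were low together. Summed over the 15 genes of the list, the libraries ran from 3952 to 8025 FPKM. Hba-a1 (291 ± 99.7 FPKM) and Hba-a2 (16.8 ± 7.02 FPKM) are near-identical copies, so how reads were split between them is uncertain. White blood cell genes were near the floor, with 2 of 14 at 1 FPKM or more and Ptprc, the pan-leukocyte gene, at 0.00320 ± 0.00451 FPKM. Yolk sac and visceral endoderm genes had 4 of 14, led by Rbp4 (4.04 ± 0.685 FPKM) and Afp (3.41 ± 0.673 FPKM).

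Markers of regions in front of the cut were mostly low. None of the 14 forebrain and midbrain genes passed 1 FPKM, and Otx2, which is required for both, had 2 counts over the 5 libraries. The highest of them, Hesx1, had 0.686 ± 0.364 FPKM. Of 12 heart genes 3 passed 1 FPKM, led by Hcn4 (1.45 ± 0.245 FPKM), while Nkx2-5 had 5 counts in all and Nppa 1. The hindbrain and forelimb lists were exceptions. The first had 6 of 8 at 1 FPKM or more, led by Hoxb1 (29.8 ± 1.48 FPKM), which the tail bud also expresses. The forelimb list had 3 of 5, led by Meis2 (14.7 FPKM) and Hoxb5 (6.24 FPKM), which are not confined to the limb. Of the trophoblast list only Cdx2 and Hand1, both trunk genes, passed 1 FPKM.

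**Figure D4:**
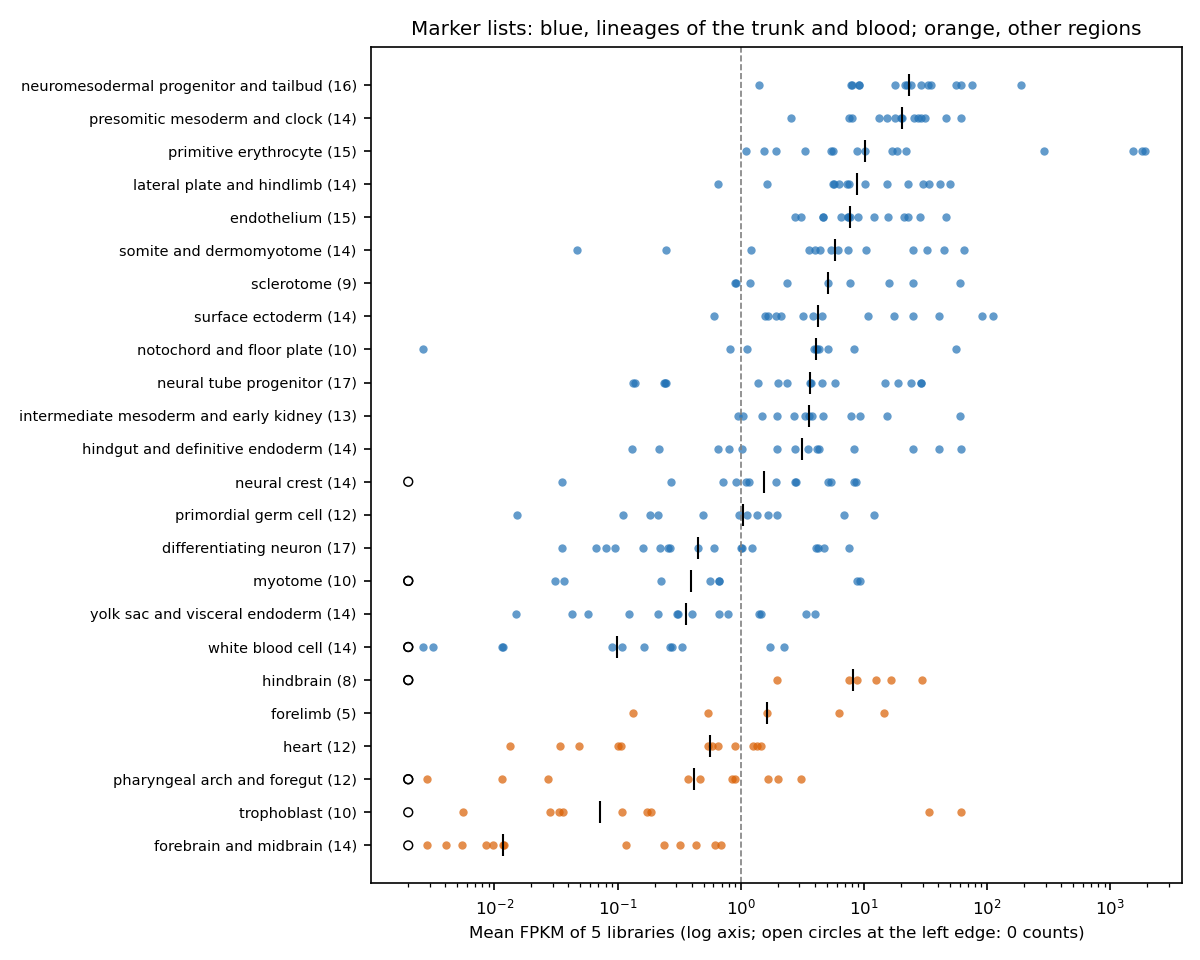
Mean FPKM (log axis) of every gene in 18 lineage lists (blue) and 6 lists of other regions (orange), with the list median as a black bar, the number of genes in brackets, and genes with 0 counts as open circles at the left edge. The tailbud list has the highest median (23.2 FPKM) and the forebrain and midbrain list, with no gene at 1 FPKM (dashed line), the lowest.

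A level of 0 in this table is not always a statement about the tissue. Blocks of neighbouring genes were listed at or near 0 together, and they include genes that most cells use, such as Nup43, a nuclear pore subunit, and Lats1, a Hippo kinase, both with 0 counts. Of 408 genes of basic complexes, 396 (97.1%) passed 1 FPKM and 7 (1.72%) were under 0.1 FPKM. Of 334 members under 0.1 FPKM, 282 had a coding gene of at least 1 FPKM among their 4 nearest and 26 had all 4 under 0.1 FPKM. Egr2, a hindbrain factor, and Celsr3, a planar polarity receptor, had 0 counts and lie in such blocks, so no level is read for them here. Both are among the 282, through Jmjd1c (2.96 FPKM) beside Egr2 and Ip6k2 (3.22 FPKM) beside Celsr3. The neighbour counts thus cannot tell which low values come from such blocks, and the same counts over all coding genes were not made. Dlk1 and Tdgf1 also had 0 counts. Gdf1 had 0 counts and overlaps another gene over its whole exonic length. The genes of this paragraph were chosen after their values were seen.

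Variation between the libraries was described by the excess coefficient of variation (CV), which is the CV of FPKM after the share that counting gives is removed, for genes of at least 5 FPKM. The median was 3.77% for 7187 protein-coding genes, 5.64% for 204 transcription factors, 7.74% for 47 ligands, 5.21% for 84 receptors and 9.33% for 94 lineage markers. At 10% or more stood 43 transcription factors (21.1%), 16 ligands (34.0%), 7 receptors (8.33%) and 42 lineage markers (44.7%), beside 6.48% of coding genes and 8.55% of all genes. Without Het 1-1 the ligand count was 10. Within the 3 libraries of column set 2 alone the counts were 23 of 201 transcription factors, 3 of 45 ligands, 6 of 84 receptors and 30 of 94 lineage markers, beside 4.61% of coding genes. The ligand share there, 6.67%, was thus near that of coding genes. Within the 2 libraries of set 1 they were 21 of 208, 11 of 46, 5 of 86 and 31 of 96, beside 6.11% of coding genes.

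The clock genes were among the most variable. Hes7, the oscillating repressor of the segmentation clock, stood at 8.66, 18.6, 9.63, 19.01 and 20.7 FPKM, an excess CV of 36.9%. Lfng, which modifies Notch in the same cycle, stood at 9.64, 19.99, 12.35, 21.4 and 26.2 FPKM. In both genes the 2 libraries of set 1 lay well below the 3 of set 2. Dkk1, a WNT antagonist of the same list, had the highest excess CV of any lineage marker, 54.4%, with 15.6, 6.83, 5.54, 5.36 and 6.33 FPKM, so WT 1-2 alone was high. Of the 13 clock and presomitic genes of at least 5 FPKM, 8 had an excess CV of 10% or more, and so did 11 of 15 tailbud genes.

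Posterior Hox genes varied with the set as well. Hoxd11 stood at 12.8, 6.07, 11.8, 8.92 and 7.21 FPKM and Hoxd13 at 10.6, 6.32, 12.3, 9.15 and 6.72 FPKM. All 4 genes of groups 11 to 13 with at least 5 FPKM were higher in both libraries of set 1 than in any of set 2, and their set means differed 1.33-fold to 1.66-fold. The same 4 genes were also lower in WT 2-1 and Het 2-5, the libraries low in Xist, than in the rest. Which of these groupings they follow was not tested. Of the 15 genes of groups 5 to 9, 7 were lower in set 1 without overlap and 1 (Hoxa6) higher. Over all 34 Hox genes of at least 5 FPKM, 7 were higher in set 1, 9 lower and 18 overlapped, beside 17.8% of coding genes higher and 23.3% lower. The family as a whole was thus near the background, and the counts by paralogue group are a description of 2 against 3 libraries.

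Among all members, set 1 was above set 2 without overlap for 56 of 204 transcription factors, 12 of 47 ligands and 24 of 84 receptors of at least 5 FPKM, beside 17.8% of coding genes and 17.3% of all genes. It was below for 42, 12 and 11, beside 23.3% and 23.4%. By list, 10 of 15 tailbud genes of at least 5 FPKM were lower in set 1 and 1 higher, while 9 of 11 red cell genes and 5 of 8 somite and dermomyotome genes were higher and none lower. The split covers 1 WT and 1 Het library against 1 WT and 2 Het. Globin share was 0.576%, 0.284%, 0.453%, 0.426% and 0.279%. It was lowest in WT 2-1 and Het 2-5, while Het 2-4 of set 2 was close to Het 1-1 of set 1. The part of globin share in these differences was not tested. Xist did not follow the split, since Het 2-4 of set 2 was close to both libraries of set 1. Ddx3y, a gene of the Y chromosome, was at 7.80 and 8.24 FPKM in WT 2-1 and Het 2-5, and at 0.0453 FPKM or less elsewhere. With Xist, this marks WT 2-1 and Het 2-5 as male and WT 1-2, Het 1-1 and Het 2-4 as female. The part of sex in the spread between libraries was not tested.

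Of the other variable members, some separated the column sets and some did not. Among ligands, Wnt2 stood at 5.11, 4.04, 8.12, 6.34 and 4.41 FPKM, Efna1 at 15.98, 26.3, 17.9, 21.7 and 23.2 FPKM and Vegfb at 28.7, 29.3, 22.0, 19.4 and 20.6 FPKM. Wnt2 was highest in Het 1-1 and overlapped between the sets, as did Vegfb, while Efna1 was lower in both libraries of set 1. Rspo1, a WNT enhancer, had an excess CV of 20.6% and was higher in set 1. Among receptors, Epor, the erythropoietin receptor of red cells, stood at 6.88, 4.22, 6.70, 5.12 and 4.05 FPKM, and Klf1, a red cell transcription factor, at 7.95, 4.88, 4.49, 6.70 and 4.25 FPKM. Epor was higher in both libraries of set 1, and Klf1 overlapped. Prtg, altered in the Het libraries, came next after Epor among receptors, with an excess CV of 19.8%, and overlapped between the sets.

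At the other end, several members varied no more than counting alone allows. F2r stood at 54.5, 55.1, 54.4, 54.1 and 54.3 FPKM, a CV of 0.730%. Mdk, with an excess CV of 0.806%, was close to this. Smad4, the shared Smad of the BMP and TGF-beta pathways, stood at 38.0, 38.5, 37.3, 38.9 and 39.2 FPKM. Plagl2, Atf2, Elk1, Nfkb1, Efna4, Shh, Celsr1, Ifnar1, Adgrl1, Epha4, Foxc2 and Hes5 also had an excess CV of 0. Shh was thus level in all 5 libraries while Wnt3a, Fgf8 and the clock genes were not. An excess CV of 0 was found for 16 of 204 transcription factors, 2 of 47 ligands and 5 of 84 receptors, beside 982 of 7187 coding genes. It was thus no more common among these members than among coding genes, and over 5 libraries it need not mean a constant level.

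**Figure D5:**
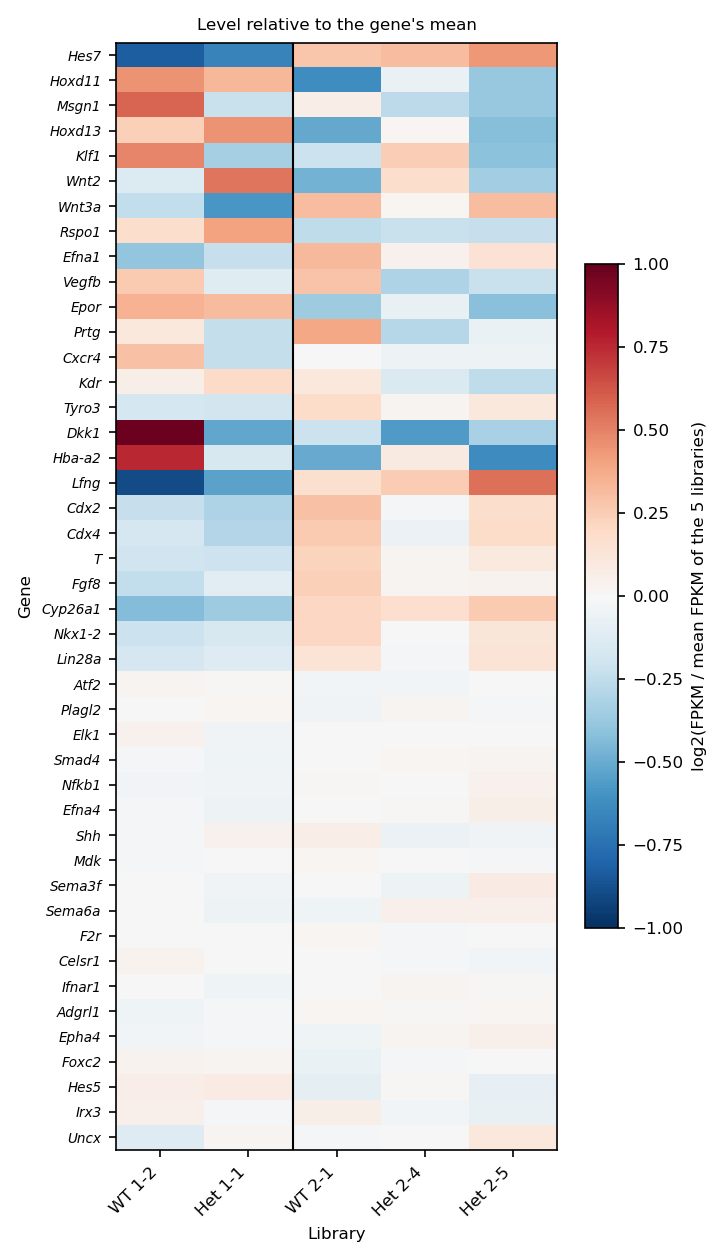
Level of each gene in each library relative to its mean, as log2(FPKM / mean FPKM) (on a colour scale), for members with the highest excess CV, 7 tailbud genes and members with the lowest; a line divides column set 1 (left) from set 2. Hes7, Lfng and the tailbud genes are low and Hoxd11 and Hoxd13 high in both libraries of set 1, while Dkk1 is high in WT 1-2 alone.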

How the data were processed

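RNA was poly(A)-selected and made into libraries with random primers, per the labels' protocols, in which the kit is not said to mark strand. Read trimming, alignment and counting tools named in the submitters' processing notes are HTSeq 0.6.1, cutadapt 1.9.1 and HISAT2 2.0.1, with GRCm38 and mm10 as builds. No annotation release or strand setting is given in the sources used here, and overlapping or antisense genes cannot be told apart. The deposited table gives for each gene and library a count, and for each gene the exonic length in bases. Column names were matched to genotype only, since their numbers match no sample number in the labels. The table's 8 per-sample FPKM columns were not used. Of its 55573 genes, 55480 are in GENCODE M21, and 99.5% of these have the same exonic length there.

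FPKM was computed from the deposited counts, the column totals (16874860 to 17388419 counts) and the exonic lengths. Genes with fewer than 3 counts over the 5 libraries were called not detected at this depth, a limit that covers counting error only. The excess CV is the square root of the squared CV minus 1 over the mean count, set to 0 where negative, and it was tested on simulated data. Alternatives used edgeR 4.0.16 (R 4.3.3) for TMM factors and the biological coefficient of variation, TPM, other thresholds, and each library left out. Promoters were read by symbol from a RefSeq table, with the first entry of each gene used.

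Families and marker lists (33 of transcription factors, 16 of ligands, 15 of receptors, 18 of lineages and 6 of other regions) and the members were chosen with earlier results of these data known. The text names the 15 highest genes per class, the 2 highest and the lowest per list where these are described, 27 genes of the body axis, and the 5 most and 5 least variable per class. Further genes were named after their values were seen. A few genes that these rules pick are counted in the lists and not reported here by name.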

Additional observations from a re-analysis of the deposited data

Results flagged for a closer look

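In 115 sets of 5 library values (the summed level of each of the 88 lists, and each of 27 axis genes) the gap between the highest or lowest library and its nearest neighbour was set against the whole range. Dixon's limit for 5 samples is 0.71, and 7 sets passed it. Chance alone passes about 1 in 20 groups. Values stand in the order WT 1-2, WT 2-1, Het 1-1, Het 2-4, Het 2-5.

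WT 1-2 was highest in 2 of the 7. The forebrain and midbrain list summed to 3.05, 2.35, 2.44, 2.25 and 2.23 FPKM, a gap of 0.739 of the range, with no gene of the list at 1 FPKM. The chemokine receptors summed to 30.8, 25.4, 24.3, 25.1 and 24.9 FPKM, a gap of 0.829, with Cxcr4 as the highest gene.

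WT 2-1 was highest in 2. The Hedgehog ligands summed to 9.835, 10.99, 9.858, 9.51 and 9.626 FPKM, a gap of 0.766, and Ihh was highest in the same library. The Ets factors summed to 203, 209, 203, 201 and 202 FPKM, a gap of 0.721.

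Het 2-5 was lowest in 2. The heart list summed to 7.35, 7.10, 7.34, 7.43 and 6.095 FPKM, a gap of 0.753. The list of lysophospholipid, endothelin and other G protein-coupled receptors summed to 246.5, 246.2, 246.6, 247.3 and 238.3 FPKM, a gap of 0.880. Meox1, the somite factor, was highest in Het 1-1, at 63.8, 63.0, 69.5, 63.0 and 63.1 FPKM, a gap of 0.869.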

How the results depend on the processing

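Counts of genes at 1 FPKM or more stayed within 1.5 times the reported ones in every setting run. Counts at 10 FPKM or more moved with the unit and the threshold by construction. With TPM they were 8656 protein-coding genes, 259 transcription factors, 64 ligands, 106 receptors and 120 lineage markers. At 5 FPKM they were 204 transcription factors, 47 ligands, 84 receptors and 94 lineage markers, and at 20 FPKM 2753 coding genes, 83 transcription factors, 17 ligands and 26 receptors. Counts at an excess CV of 10% or more moved with the level filter: at 1 FPKM to 1575 coding genes, 116 transcription factors, 44 ligands, 28 receptors and 84 lineage markers, and at 10 FPKM to 234, 21, 8, 4 and 26. With edgeR's biological coefficient of variation they were 26 transcription factors and 3 receptors. Leaving out each library in turn gave 10 to 18 ligands. Within column set 2, an alternative added after the data were seen, they were 23 transcription factors and 3 ligands, and within set 1 21 transcription factors. The 27 axis genes moved by more than 1 SD with TPM and with no other setting. No paired analysis was possible because no groups were compared and the column names carry no sample number. The deposited FPKM columns were not run because each library could keep 1 measure only. The depth limits genes near the floor of 3 counts.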

Other observations

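Over all genes of at least 5 FPKM, the 10 with the highest excess CV included several pseudogene copies of abundant genes. Rps2-ps13 stood at 167, 180.2, 166, 1400 and 1493 FPKM, while Rps2, the ribosomal protein gene it copies, stood at 1305, 1434, 1320, 713 and 727 FPKM. The summed counts of the pair were 43367, 47696, 43219, 43140 and 46033, so the sum was far steadier than either gene. Not every copy had such a mirror image: Rpl30-ps10 ran from 13.2 to 52.4 FPKM, and Rpl30 was at 125.5 and 135.6 FPKM in the 2 libraries where the copy was highest, within its range of 108 to 137 FPKM. Atp6v0c-ps2 was at 69.9 and 74.2 FPKM in Het 2-4 and Het 2-5 and at 0.255 to 1.26 FPKM in the other 3 libraries, with Atp6v0c itself lower in the same 2 libraries. Rpl3-ps1 was high in Het 2-5 alone, at 419 FPKM, where Rpl3 was at 150 FPKM beside 254 to 277 FPKM elsewhere. For Eno1 and Eno1b, chosen after their values were seen, Eno1b was at 63.0 and 58.4 FPKM in the 2 libraries of column set 1 and at 225 to 232 FPKM in the 3 of set 2, and Eno1 at 305 and 308 against 196 to 210 FPKM.

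Snord43 and Rpph1, small RNAs also among the 10, were both highest in Het 1-1, at 27.4 and 16.5 FPKM. Gapdh and Ppia, genes with many processed copies, had 8.775 to 18.8 and 7.95 to 9.65 FPKM. Actb, also widely used as a reference gene, had 899 to 995 FPKM.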
